A study of Homo sapiens with 6 samples.

Results

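The cartilage and bone genes are 33 genes for the collagens, proteoglycans, secreted factors and transcription factors of cartilage, together with the transcription factors and mineral proteins of bone-forming cells. They were chosen by gene symbol, older names included, from the probes of 6 single-colour 3D-Gene oligonucleotide arrays. The choice was made with earlier results of these data known. Of the 33 genes, 32 had a probe and 30 were tested, out of 17446 genes with a usable probe and 16364 genes tested. CNMD was found under its older symbol LECT1, and UCMA under its older symbol C10orf49. No probe carried the symbol SCRG1. COL10A1, the collagen of hypertrophic cartilage, lay above background on 1 array, that of PKHD1+/- organoids under flow, with 0.81 units in the authors' table, and was not tested. The probe for COMP, a matrix protein of cartilage and tendon, carried a flagged spot on that same array and was left out. Its values in the authors' table were 11.3 in PKHD1-/- organoids under flow, 18.0 and 11.8 in PKHD1-/- and PKHD1+/- organoids with forskolin, and 14.9 and 11.1 in PKHD1-/- and PKHD1+/- organoids in static culture.

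Chondrocytes, the cells of cartilage, surround themselves with fibrils of type II collagen, which carry types IX and XI, and with large aggregates of the proteoglycan aggrecan held on hyaluronan. The transcription factor SOX9, with its partners SOX5 and SOX6, turns these matrix genes on, while RUNX2 and SP7 direct the formation of bone, whose mineral proteins include IBSP and BGLAP. Cartilage is not part of the kidney, but SOX9 is also active in kidney tubule cells during development and repair. ALPL is likewise active outside bone, including in the kidney.

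The RNA came from kidney organoids, which are clusters of nephron and stromal cells grown in culture, collected at day 35. They were derived from the human embryonic stem cell line H9, which is an established line. All groups carried mutations of PKHD1, the gene of autosomal recessive polycystic kidney disease, and no line without a mutation was analysed here. PKHD1-/- organoids came from clone C51 and PKHD1+/- organoids from clone C9, and with 1 clone for each genotype the effects of clone and of genotype cannot be told apart. In the flow culture the organoids lay on a gelatin and fibrin matrix and medium moved over them at 4.27 ml/min from day 15. In the forskolin culture they were given 20 µM forskolin, which activates adenylyl cyclase and raises cyclic AMP, from day 14, and the labels do not place them on the matrix. The static organoids were kept on the matrix without flow.

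Each of the 6 groups had 1 array and no replicate. The median spot lay between 33.6 and 58.3 intensity units above the blank spots on the flow and static arrays, and 16.5 and 21.2 units above them on the PKHD1-/- and PKHD1+/- forskolin arrays. The forskolin arrays were also scanned in a session of their own, so treatment, scan session and matrix cannot be told apart in the comparison of forskolin with static culture. Of the kidney markers listed, all 7 tested podocyte genes and 12 of 13 tested tubule genes lay above background on every array. So did 14739 of the 16364 genes tested, so these counts do not set the kidney markers apart from other genes. An array gives no count of molecules, and the number of arrays limits the precision. RNA came from whole organoids, so fewer cells of a type and less RNA per cell cannot be told apart.

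Levels are given as normalized log2 intensity, and differences as the mean over pairs of arrays with limma's moderated SE, which draws on all 6 arrays. A gene counted as above background on an array where the authors' table gives it a value, and it was tested where this held on at least 2 of the 6 arrays. An offset of 50 intensity units, added before the logarithm, makes differences of dim genes smaller than those of the authors' background-subtracted values. For that reason folds from the authors' table are set beside some of the differences. Adjusted p-values were adjusted over all 16364 genes, and the threshold was 0.05.

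With flow, the cartilage collagens, matrix proteoglycans and small secreted proteins stood mostly above static culture in both genotypes, and none of the 3 bone mineral genes did. Of the 30 genes tested, 21 were higher with flow in both pairs of arrays, against 21.1% of all genes tested, and 4 were lower in both pairs, against 24.2% of all genes tested. The median difference over the 30 genes was 0.36, against -0.01 over all genes. It was 0.221 without the PKHD1+/- static array, 0.232 without the PKHD1+/- flow array and 0.828 on the values of the authors' table. Within the PKHD1-/- and PKHD1+/- pairs, the medians over the 30 genes lay between 0.26 and 0.37. Because the list was chosen with earlier results known, counts set beside shares of all genes describe it and are no test. No single gene passed the adjusted threshold. The same limma test called 0 of the 16364 genes, which is 0% of them, in either direction, and 971 genes at an unadjusted p under 0.05. At that unadjusted level, 10 of the 30 genes were higher with flow, against 3.25% of all genes tested, and 0 were lower, against 2.68%. Because MATN1 came into the test only through the flow arrays, the counts were also taken over the 28 genes above background on all 6 arrays. There 19 of 28 genes were higher in both pairs, against 20.6% of all genes above background on all 6 arrays, and the median difference was 0.39. Scaling each array to its 75th percentile in place of quantile normalization moved the median of all genes to -0.11, and 11 of the 30 genes were then higher at that unadjusted level. Listed genes of other tissues were also higher with flow, with a median of 1.82 over 23 skeletal muscle genes and 0.33 over 13 neuronal genes, and their part in the cartilage values was not tested.

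**Figure D1:**
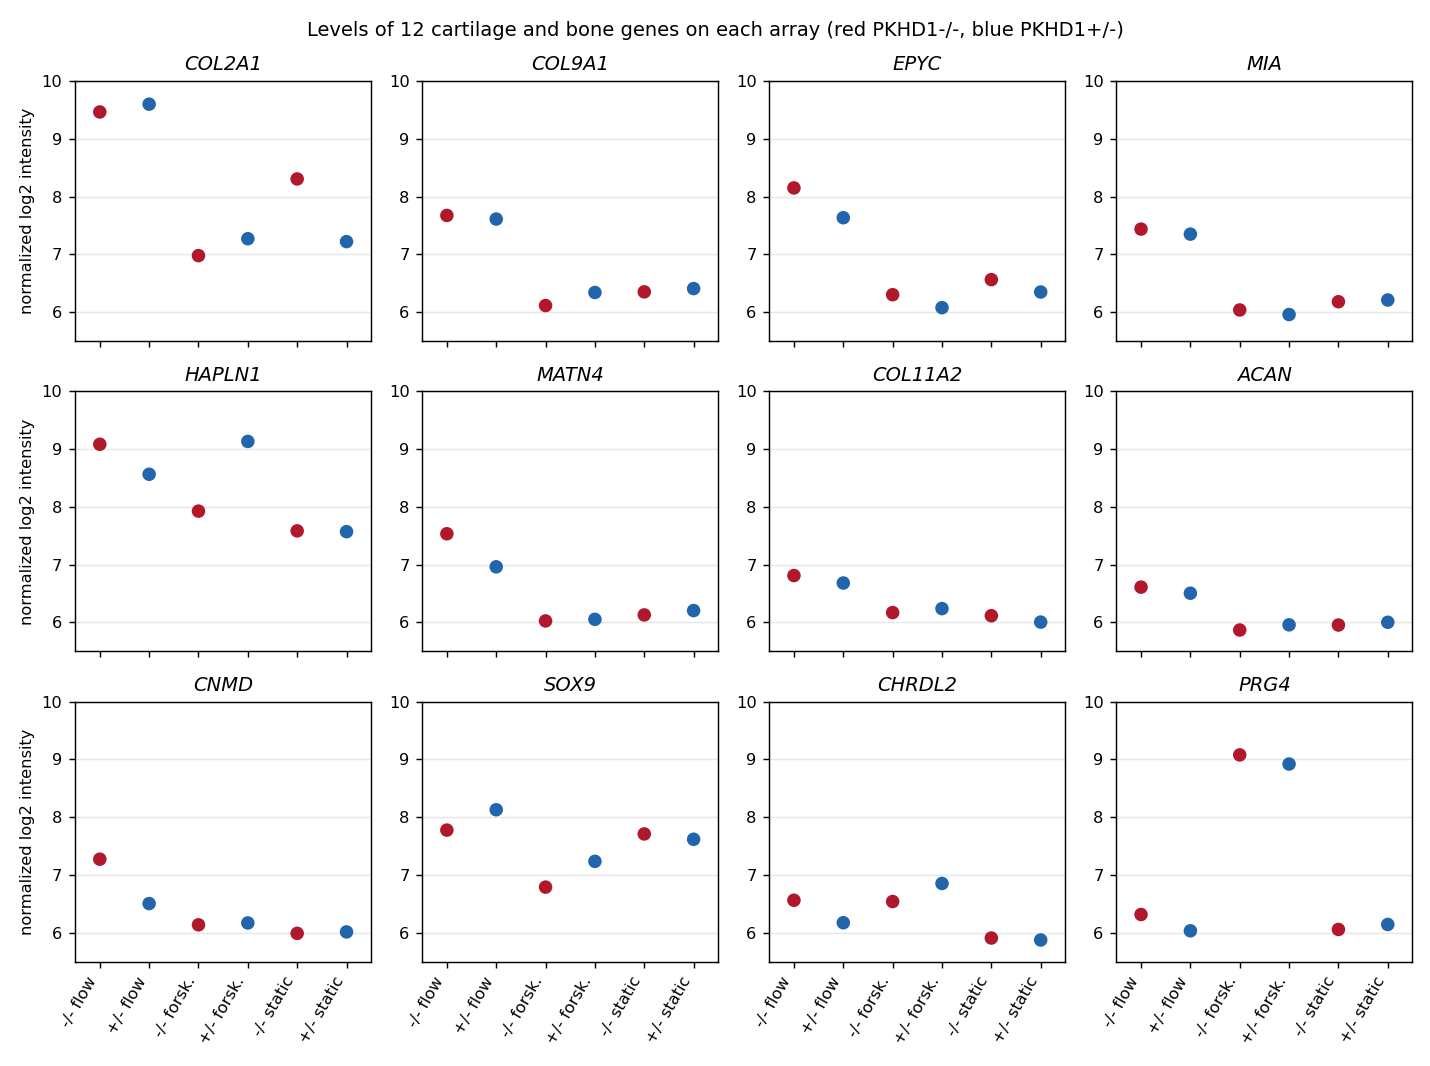
Normalized log2 intensity of 12 cartilage and bone genes on each of the 6 arrays, with 1 point per array, PKHD1-/- in red and PKHD1+/- in blue. COL2A1, COL9A1, EPYC, MIA, MATN4, COL11A2, ACAN and CNMD were highest on the 2 flow arrays, and PRG4 on the 2 forskolin arrays.

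Among the fibrillar collagens, the flow difference was largest for COL2A1, the type II collagen that makes up most of the cartilage fibril. Its levels were 9.46 in PKHD1-/- and 9.60 in PKHD1+/- organoids under flow, 6.98 in PKHD1-/- and 7.27 in PKHD1+/- organoids with forskolin, and 8.31 in PKHD1-/- and 7.22 in PKHD1+/- organoids in static culture. Both flow arrays were above the other 4, and the PKHD1-/- static array stood above the PKHD1+/- static array by 1.08. The flow difference was 1.77 ± 0.40 (SE, n = 2 pairs, adjusted p = 0.618 by limma), with 1.16 in the PKHD1-/- pair and 2.38 in the PKHD1+/- pair. The authors' table gave flow folds of 2.44 in PKHD1-/- organoids and 7.01 in PKHD1+/- organoids. The static arrays set much of this size: the difference was 2.42 without the PKHD1-/- static array and 1.12 without the PKHD1+/- static array.

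COL9A1, which encodes a chain of the type IX collagen on the surface of those fibrils, differed more evenly. It reached 7.67 in PKHD1-/- and 7.61 in PKHD1+/- organoids under flow, 6.11 and 6.34 in PKHD1-/- and PKHD1+/- organoids with forskolin, and 6.35 and 6.41 in PKHD1-/- and PKHD1+/- organoids in static culture. The flow arrays lay more than 1 log2 unit above every other array, and the genotypes differed by at most 0.23 within a culture. The difference was 1.26 ± 0.10 (SE, n = 2 pairs, unadjusted p = 0.00038, adjusted p = 0.363 by limma), with 1.32 in the PKHD1-/- pair and 1.20 in the PKHD1+/- pair. In the authors' table the flow folds were 5.21 in PKHD1-/- and 5.04 in PKHD1+/- organoids.

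COL11A2, a chain of the type XI collagen in the core of the cartilage fibril, had levels of 6.81 in PKHD1-/- and 6.68 in PKHD1+/- organoids under flow, against 6.12 and 6.01 in PKHD1-/- and PKHD1+/- organoids in static culture. The groups did not overlap, and the difference was 0.69 ± 0.08 (SE, n = 2 pairs, adjusted p = 0.498 by limma). The other chains were less even between genotypes. COL11A1 differed by 0.29 in the PKHD1-/- pair and 0.79 in the PKHD1+/- pair, and COL9A2 by 0.06 and 0.48 in the PKHD1-/- and PKHD1+/- pairs. COL9A3 was the exception among the 6 collagen genes tested, with -0.06 in the PKHD1-/- pair and 0.86 in the PKHD1+/- pair. The median flow difference over the 6 genes was 0.61, and 5 of them were higher in both pairs.

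The flow differences of the 10 proteoglycan and adaptor genes tested ran from -0.04 to 1.44, with a median of 0.31. EPYC, which encodes epiphycan, a small proteoglycan of growth plate cartilage, had levels of 8.15 in PKHD1-/- and 7.63 in PKHD1+/- organoids under flow, 6.30 and 6.08 in PKHD1-/- and PKHD1+/- organoids with forskolin, and 6.56 and 6.35 in PKHD1-/- and PKHD1+/- organoids in static culture. Both flow arrays were the highest and both forskolin arrays the lowest. The flow difference was 1.44 ± 0.11 (SE, n = 2 pairs, unadjusted p = 0.000361, adjusted p = 0.363 by limma), with 1.59 in the PKHD1-/- pair and 1.29 in the PKHD1+/- pair.

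HAPLN1, the link protein that fastens aggrecan to hyaluronan, had levels of 9.08 in PKHD1-/- and 8.56 in PKHD1+/- organoids under flow, 7.93 in PKHD1-/- and 9.13 in PKHD1+/- organoids with forskolin, and 7.58 and 7.57 in PKHD1-/- and PKHD1+/- organoids in static culture. Flow stood above static culture in both genotypes, but the highest value was that of the PKHD1+/- forskolin array. The flow difference was 1.25 ± 0.47 (SE, n = 2 pairs, adjusted p = 0.890 by limma), and without 1 array in turn it lay between 0.69 and 1.80. HAPLN1 stood 54th from the top of the 16364 genes by its flow difference, COL2A1 27th, EPYC 44th, COL9A1 51st and MIA 61st.

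MATN4, one of the matrilins that link collagen fibrils to other matrix proteins, had levels of 7.53 in PKHD1-/- and 6.96 in PKHD1+/- organoids under flow, against 6.13 and 6.21 in PKHD1-/- and PKHD1+/- organoids in static culture. Its flow difference was 1.08 ± 0.20 (SE, n = 2 pairs, adjusted p = 0.564 by limma), with 1.40 in the PKHD1-/- pair and 0.76 in the PKHD1+/- pair. Its probes agreed in direction, at 1.97 and 0.83 in the PKHD1-/- pair and 1.08 and 0.44 in the PKHD1+/- pair. MATN3, which is largely restricted to cartilage, had levels of 6.50 in PKHD1-/- and 6.45 in PKHD1+/- organoids under flow, against 6.01 and 6.03 in PKHD1-/- and PKHD1+/- organoids in static culture, a difference of 0.46 ± 0.06 (SE, n = 2 pairs, adjusted p = 0.498 by limma). MATN1 lay above background on the flow arrays only, where it averaged 5.93 against 5.76 in static culture. Its flow difference was 0.26 in the PKHD1-/- pair and 0.07 in the PKHD1+/- pair. Those flow values were dim, at 5.45 units in PKHD1-/- and 3.13 units in PKHD1+/- organoids in the authors' table.

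ACAN, which encodes aggrecan, had levels of 6.61 in PKHD1-/- and 6.51 in PKHD1+/- organoids under flow, 5.87 and 5.96 in PKHD1-/- and PKHD1+/- organoids with forskolin, and 5.96 and 6.0 in PKHD1-/- and PKHD1+/- organoids in static culture. Both flow arrays were above the other 4, and the flow difference was 0.58 ± 0.08 (SE, n = 2 pairs, unadjusted p = 0.00281, adjusted p = 0.498 by limma). Its probes disagreed. Probe 1 differed by 1.34 in the PKHD1-/- pair and 1.02 in the PKHD1+/- pair, and probe 2 by -0.03 and -0.02 in the PKHD1-/- and PKHD1+/- pairs. Which parts of the transcript the probes lie in is not given in the sources used here. CHAD, FMOD, CILP and PRG4 differed by less than 0.3 in either pair, in the range from -0.21 for FMOD to 0.26 for PRG4, both in the PKHD1-/- pair.

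Among the small secreted proteins, MIA, a secreted protein of chondrocytes and melanoma cells, had levels of 7.44 in PKHD1-/- and 7.35 in PKHD1+/- organoids under flow, 6.04 and 5.96 in PKHD1-/- and PKHD1+/- organoids with forskolin, and 6.18 and 6.21 in PKHD1-/- and PKHD1+/- organoids in static culture. The flow arrays were above the other 4, and the forskolin arrays were below the other 4. The flow difference was 1.20 ± 0.07 (SE, n = 2 pairs, adjusted p = 0.296 by limma), and its unadjusted p of 0.000126 was the smallest of the 30 genes. In the authors' table MIA had flow folds of 6.10 in PKHD1-/- and 6.25 in PKHD1+/- organoids.

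CNMD, which encodes chondromodulin, a protein of cartilage that blocks vessel growth, had levels of 7.27 in PKHD1-/- and 6.50 in PKHD1+/- organoids under flow, against 5.99 and 6.01 in PKHD1-/- and PKHD1+/- organoids in static culture. The difference was 0.89 ± 0.25 (SE, n = 2 pairs, adjusted p = 0.740 by limma), with 1.28 in the PKHD1-/- pair and 0.49 in the PKHD1+/- pair. The cartilage matrix protein UCMA had a larger value in 1 genotype, with 0.99 in the PKHD1-/- pair and 0.11 in the PKHD1+/- pair. CHRDL2, an inhibitor of bone morphogenetic proteins, differed by 0.65 in the PKHD1-/- pair and 0.30 in the PKHD1+/- pair. GDF5, the growth factor of forming joints, stayed between 5.87 and 6.01 on all 6 arrays.

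The 5 transcription factors had a median flow difference of 0.14, against 0.61 for the 6 collagens. SOX9 had levels of 7.78 in PKHD1-/- and 8.13 in PKHD1+/- organoids under flow, 6.79 and 7.24 in PKHD1-/- and PKHD1+/- organoids with forskolin, and 7.71 and 7.62 in PKHD1-/- and PKHD1+/- organoids in static culture. Flow stood above static culture by 0.07 in the PKHD1-/- pair and by 0.51 in the PKHD1+/- pair, a mean of 0.29 ± 0.16 (SE, adjusted p = 1.00 by limma). SOX5 lay between 5.80 and 5.96 and SOX6 between 5.96 and 6.19 over the 6 arrays, with flow differences of 0.12 ± 0.06 and 0.14 ± 0.08 (SE, n = 2 pairs). SOX5 was above background on 5 of the 6 arrays.

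RUNX2, which directs bone formation and the maturation of chondrocytes, had levels of 6.51 in PKHD1-/- and 6.41 in PKHD1+/- organoids under flow, 5.91 and 5.97 in PKHD1-/- and PKHD1+/- organoids with forskolin, and 6.17 and 6.09 in PKHD1-/- and PKHD1+/- organoids in static culture. The flow arrays were the highest and the forskolin arrays the lowest, with a flow difference of 0.33 ± 0.07 (SE, n = 2 pairs, adjusted p = 0.611 by limma). RUNX2 probe 1 differed by 0.73 in the PKHD1-/- pair and 0.58 in the PKHD1+/- pair, while probe 2 differed by -0.04 and 0.06 in the PKHD1-/- and PKHD1+/- pairs. SP7, the osteoblast factor that acts after RUNX2, lay between 6.14 and 6.24 on all 6 arrays.

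The 3 bone mineral proteins had a median flow difference of -0.05. BGLAP, which encodes osteocalcin, had levels of 7.29 in PKHD1-/- and 7.25 in PKHD1+/- organoids under flow, 7.63 and 7.24 in PKHD1-/- and PKHD1+/- organoids with forskolin, and 7.71 and 7.36 in PKHD1-/- and PKHD1+/- organoids in static culture. Both flow values were below both static values, and the difference was -0.27 ± 0.11 (SE, n = 2 pairs, adjusted p = 0.928 by limma). IBSP, bone sialoprotein, had levels of 6.40 in both genotypes under flow and 6.45 in both in static culture, with 6.66 in PKHD1-/- and 6.40 in PKHD1+/- organoids with forskolin. ALPL, the alkaline phosphatase of bone, liver and kidney, had levels of 6.20 in PKHD1-/- and 6.65 in PKHD1+/- organoids under flow, 5.94 and 6.19 in PKHD1-/- and PKHD1+/- organoids with forskolin, and 6.52 and 6.41 in PKHD1-/- and PKHD1+/- organoids in static culture. The flow and static ALPL levels overlapped, with a flow difference of -0.31 in the PKHD1-/- pair and 0.24 in the PKHD1+/- pair.

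**Figure D2:**
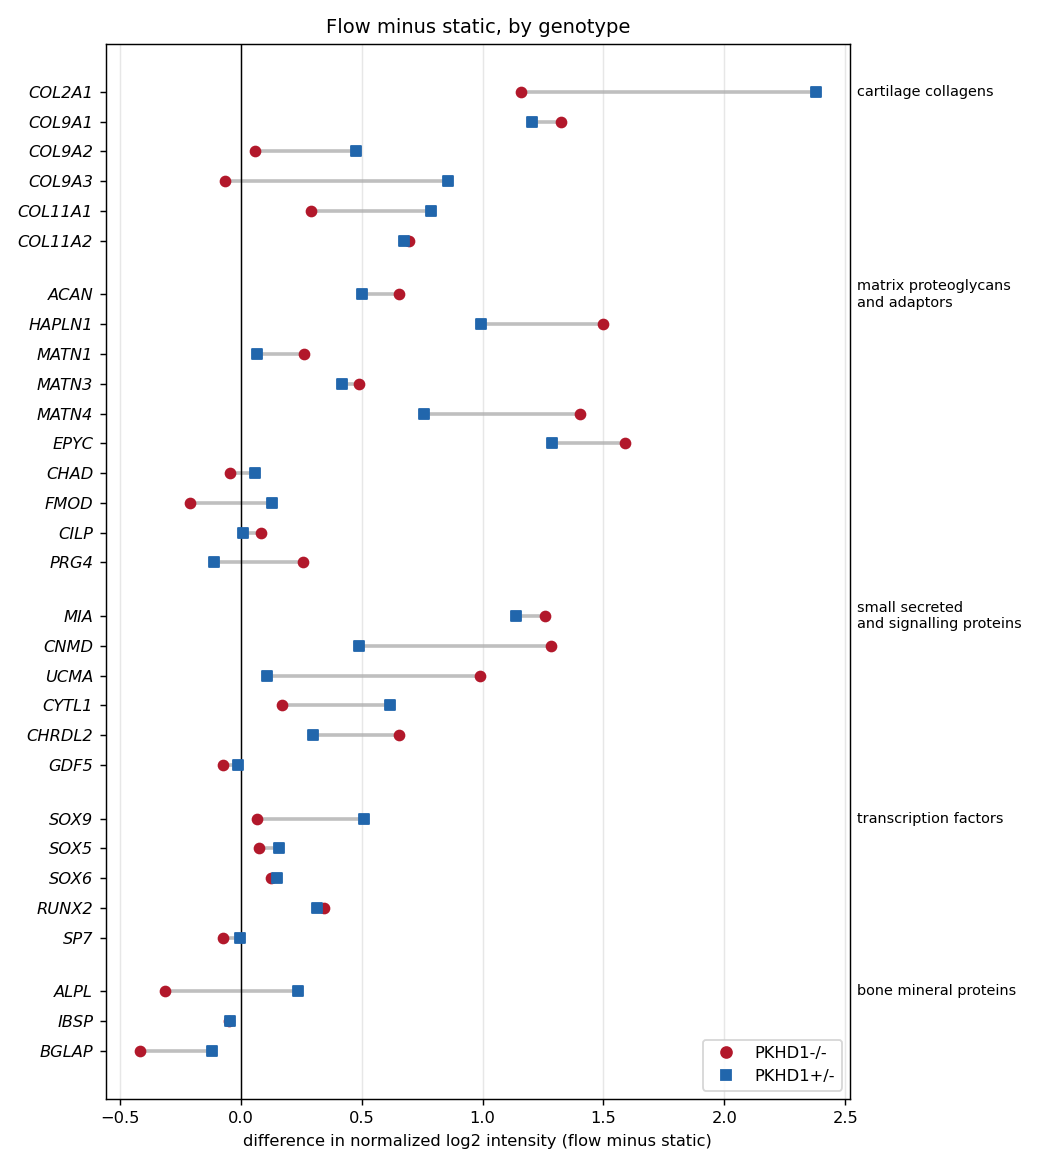
Difference in normalized log2 intensity between flow and static culture for the 30 genes tested, grouped by role, with 1 point per genotype (red circles PKHD1-/-, blue squares PKHD1+/-) joined by a grey line. COL2A1, COL9A1, EPYC and MIA lay above 1 in both genotypes, and IBSP and BGLAP below 0 in both.

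Counted by size, 8 of the 30 genes were at least 0.5 higher with flow in both pairs, against 1.08% of all genes tested, and 4 were at least 1 higher in both, against 0.354%. None was lower by 0.5 or by 1 in both pairs, against 0.574% and 0.116% of all genes. In 19 of the 30 genes both flow arrays stood above both static arrays, against 15.7% of all genes, and in 4 both stood below, against 18.9%. In 16 of the 30 genes both flow arrays were above all other 4 arrays, forskolin included, against 7.13% of all genes. Over the 28 genes above background on all 6 arrays these counts were 17, against 15.3%, and 14, against 6.89%. Only GDF5 and IBSP had both flow arrays below the other 4, against 9.86%. For GDF5 the gap was narrow, with flow levels of 5.876 and 5.873 against 5.882 on the PKHD1+/- static array. The authors' table gave GDF5, SP7 and IBSP flow folds of 0.503, 0.717 and 0.833 in PKHD1-/- but 1.56, 1.33 and 1.17 in PKHD1+/- organoids. In PKHD1-/- and PKHD1+/- organoids GDF5 had dim values of 2.27 and 4.14 units under flow and 4.51 and 2.66 in static culture. The median of each array is 25 units.

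The 5 genes with the largest smallest paired flow change were EPYC, COL9A1, COL2A1, MIA and HAPLN1. To show the regulatory sequence in front of such genes, the promoters of EPYC, MIA, HAPLN1 and COL9A1 are printed, each 300 bases from 250 before to 50 after the RefSeq gene start, 5′ to 3′ on the gene's own strand (GRCh38.p14). Capitals mark the letters AACAAT or ACAAAG, or their reverse complements ATTGTT and CTTTGT, which are short matches to the sequence bound by SOX proteins. The EPYC promoter lies at chr12:91004923-91005222 on the minus strand, that of MIA at chr19:40774910-40775209 on the plus strand, that of HAPLN1 at chr5:83720806-83721105 on the minus strand and that of COL9A1 at chr6:70283148-70283447 on the minus strand.
EPYC: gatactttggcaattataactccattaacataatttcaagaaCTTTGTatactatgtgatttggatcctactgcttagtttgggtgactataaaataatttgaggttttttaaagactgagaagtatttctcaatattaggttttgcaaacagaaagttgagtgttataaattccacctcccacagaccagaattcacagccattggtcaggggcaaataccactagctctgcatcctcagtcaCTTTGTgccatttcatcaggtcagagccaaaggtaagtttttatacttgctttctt
MIA: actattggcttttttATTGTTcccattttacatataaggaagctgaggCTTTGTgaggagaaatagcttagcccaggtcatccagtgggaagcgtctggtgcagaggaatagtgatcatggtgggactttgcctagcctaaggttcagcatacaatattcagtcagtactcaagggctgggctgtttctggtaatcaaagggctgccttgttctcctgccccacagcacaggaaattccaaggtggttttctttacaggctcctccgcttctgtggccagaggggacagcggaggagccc
HAPLN1: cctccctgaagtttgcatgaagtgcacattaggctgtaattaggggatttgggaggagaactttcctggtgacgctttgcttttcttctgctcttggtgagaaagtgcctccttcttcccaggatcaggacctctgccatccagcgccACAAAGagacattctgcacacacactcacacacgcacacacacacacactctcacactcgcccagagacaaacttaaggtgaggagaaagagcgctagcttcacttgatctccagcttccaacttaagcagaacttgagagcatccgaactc
COL9A1: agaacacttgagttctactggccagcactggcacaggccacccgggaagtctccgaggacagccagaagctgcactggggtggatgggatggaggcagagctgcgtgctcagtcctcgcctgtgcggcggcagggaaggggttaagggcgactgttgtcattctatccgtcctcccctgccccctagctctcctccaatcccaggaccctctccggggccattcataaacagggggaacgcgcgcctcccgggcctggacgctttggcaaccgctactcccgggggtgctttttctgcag
EPYC and MIA held 2 matches each, HAPLN1 held 1 and COL9A1 held none in this window. Of the 33 genes, 27 had a promoter in the RefSeq table. ACAAAG was found in 7 of these 27 promoters (COL9A2, HAPLN1, EPYC, MIA, SCRG1, GDF5 and ALPL), against 16.0% of the 27305 promoters in the table. AACAAT was found in 2 (MIA and SOX5), against 10.3%. Both strands were searched, and the motifs do not overlap in the sequences printed. A match is a run of letters and does not show that a protein binds there.

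With forskolin, 1 of the 30 genes passed the adjusted threshold, against 1.03% of all genes tested in either direction and 0.703% for genes that were higher. That gene was PRG4, which encodes lubricin, the proteoglycan that lubricates joint surfaces. Its levels were 9.08 in PKHD1-/- and 8.92 in PKHD1+/- organoids with forskolin, 6.32 and 6.03 in PKHD1-/- and PKHD1+/- organoids under flow, and 6.06 and 6.14 in PKHD1-/- and PKHD1+/- organoids in static culture. Both forskolin arrays stood far above the other 4, which lay close together. PRG4 rose by 2.90 ± 0.11 (SE, n = 2 pairs, adjusted p = 0.0322 by limma), with 3.02 in the PKHD1-/- pair and 2.78 in the PKHD1+/- pair.

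In the authors' table PRG4 had 311 and 254 units in PKHD1-/- and PKHD1+/- organoids with forskolin, against 7.25 and 8.86 units in PKHD1-/- and PKHD1+/- organoids in static culture, which are folds of 42.9 and 28.7. Leaving out any 1 of the 6 arrays kept the difference between 2.75 and 3.05 but ended the call, with adjusted p between 0.100 and 0.304, and no gene of the 16364 passed in any of those 6 fits. By its difference, PRG4 stood 33rd from the top of all genes tested. Its promoter is printed because forskolin acts through cyclic AMP, whose response element has the letters TGACGTCA or the shorter TGACG. It lies at chr1:186296023-186296322 on the plus strand (GRCh38.p14, RefSeq, 5′ to 3′), and neither motif was found in it on either strand, so no letters are in capitals.
PRG4: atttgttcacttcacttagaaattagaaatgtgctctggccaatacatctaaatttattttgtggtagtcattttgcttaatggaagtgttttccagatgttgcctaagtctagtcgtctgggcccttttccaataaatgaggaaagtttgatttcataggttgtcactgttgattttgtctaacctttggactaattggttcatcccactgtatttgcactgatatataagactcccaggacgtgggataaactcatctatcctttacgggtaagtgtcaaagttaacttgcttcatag
TGACGTCA was found in 0 of the 27 promoters, against 1.98% of all promoters. The shorter TGACG, which lies within it, was found in 4 of the 27 (COL11A1, HAPLN1, FMOD and SOX6), against 25.0%. This says nothing of sites outside the 300 bases.

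The median forskolin difference of the 30 genes was near that of all genes, and the signs depended on the scaling. Of the 30 genes, 9 were higher with forskolin in both pairs, against 37% of all genes tested, and 13 were lower in both pairs, against 35.1%. The median difference was -0.02, against 0.00 over all genes. Scaling to the 75th percentile moved the median of all genes to 0.31 and that of the 30 genes to 0.33. Then 11 of the 30 passed the adjusted threshold, along with 6833 genes in all. Under that scaling 26 of the 30 genes had a positive mean difference, against 12 under quantile normalization. At an unadjusted p under 0.05, PRG4 and CHRDL2 were higher, against 11.9% of all genes, and MIA and SOX9 were lower, against 11.3%. In 9 genes both forskolin arrays were below the other 4, against 21% of all genes, and these were COL9A1, MATN1, MATN3, MATN4, EPYC, MIA, SOX9, RUNX2 and ALPL. PRG4 and GDF5 had both forskolin arrays above the other 4, against 24.6%. Counted by size, PRG4 and CHRDL2 were at least 0.5 higher in both pairs, against 4.32% of all genes, and PRG4 at least 1 higher, against 1.11%. None was lower by 0.5 or by 1 in both pairs, against 4.8% and 0.947%. The flow and forskolin comparisons use the same static arrays.

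CHRDL2, HAPLN1 and CYTL1 are described for forskolin because of their values. CHRDL2 had levels of 6.54 in PKHD1-/- and 6.85 in PKHD1+/- organoids with forskolin, 6.56 and 6.17 in PKHD1-/- and PKHD1+/- organoids under flow, and 5.91 and 5.87 in PKHD1-/- and PKHD1+/- organoids in static culture. Both static arrays were the lowest, and the forskolin difference was 0.80 ± 0.19 (SE, n = 2 pairs, adjusted p = 0.140 by limma). In the authors' table the CHRDL2 forskolin folds were 6.30 in PKHD1-/- and 12.4 in PKHD1+/- organoids. These folds rest on dim static values of 3.61 and 2.50 units, where the median of each array is 25. HAPLN1 differed by 0.34 in the PKHD1-/- pair and 1.56 in the PKHD1+/- pair, a mean of 0.95 ± 0.47 (SE, adjusted p = 0.345 by limma).

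SOX9 stood lower with forskolin by 0.92 in the PKHD1-/- pair and by 0.38 in the PKHD1+/- pair, and its mean difference was -0.65 ± 0.16 (SE, n = 2 pairs, adjusted p = 0.146 by limma). COL2A1 had a forskolin difference of -1.33 in the PKHD1-/- pair and 0.05 in the PKHD1+/- pair. CYTL1, a secreted protein found in cartilage, had the same kind of split, with -1.25 in the PKHD1-/- pair and 0.08 in the PKHD1+/- pair. For both genes the static PKHD1-/- array was about 1 log2 unit above the static PKHD1+/- array. RUNX2 differed by -0.19 ± 0.07 and ALPL by -0.40 ± 0.16 (SE, n = 2 pairs, adjusted p = 0.244 and 0.262 by limma). Without 1 array in turn, the RUNX2 difference lay between -0.264 and -0.120 and the ALPL difference between -0.629 and -0.174. In the PKHD1-/- and PKHD1+/- pairs, RUNX2 differed by -0.26 and -0.13 and ALPL by -0.58 and -0.22. The RUNX2 probes disagreed here too. Probe 1 differed by -0.52 and -0.38 in the PKHD1-/- and PKHD1+/- pairs, and probe 2 by 0.01 and 0.13. ACAN, SOX5, SOX6, SP7, IBSP and BGLAP had mean forskolin differences between -0.10 and 0.08. SOX9 and ALPL are also active in the kidney, and the 13 tested tubule genes had a forskolin median of -0.34. Of these, 9 were lower in both pairs, against 35.1% of all genes, and 2 were higher, against 37%. Their part in the SOX9 and ALPL values was not tested.

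**Figure D3:**
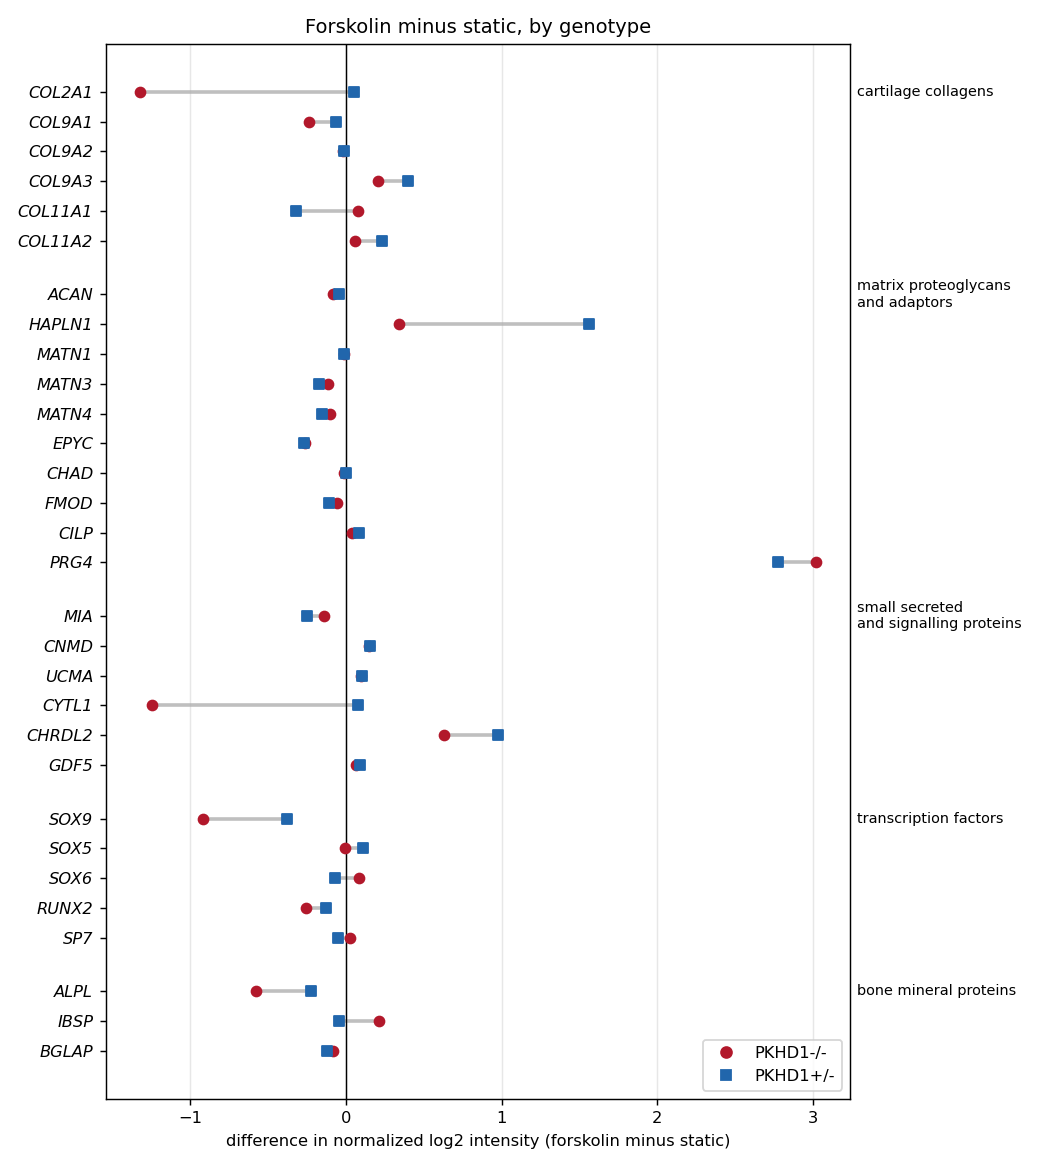
Difference in normalized log2 intensity between forskolin and static culture for the 30 genes tested, grouped by role, with 1 point per genotype (red circles PKHD1-/-, blue squares PKHD1+/-) joined by a grey line. PRG4 lay at 3.02 in PKHD1-/- and 2.78 in PKHD1+/- organoids, and COL2A1 and CYTL1 lay below -1 in PKHD1-/- organoids and near 0 in PKHD1+/- organoids.

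**Figure D4:**
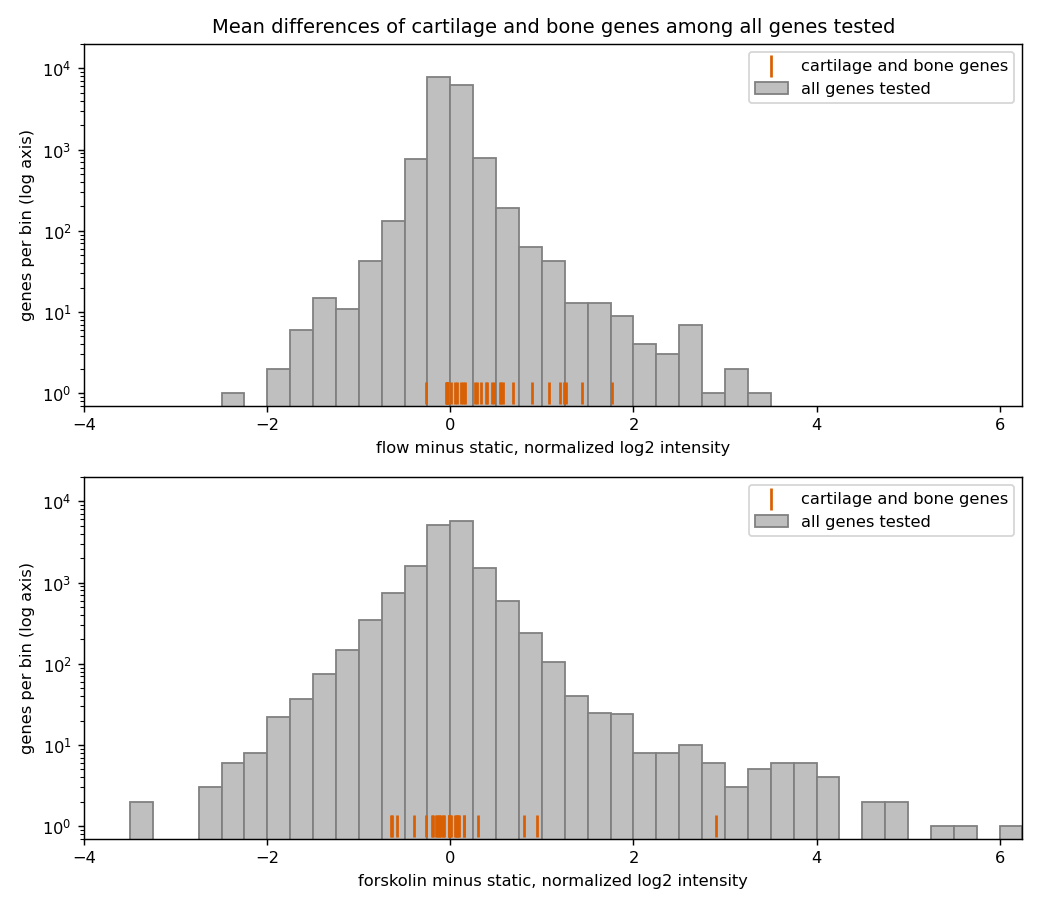
Number of genes per bin of mean difference (grey bars, log axis) for flow minus static culture (top) and forskolin minus static culture (bottom), in normalized log2 intensity, with 1 orange tick for each of the 30 cartilage and bone genes. With flow most ticks lie to the right of 0, and with forskolin most lie around 0 with PRG4 alone at 2.90.

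Between the genotypes, no cartilage or bone gene passed the adjusted threshold over the 3 cultures. The limma test called 0 of the 16364 genes, which is 0%, and 528 at an unadjusted p under 0.05. Of the 30 genes, 6 were higher in PKHD1-/- than in PKHD1+/- organoids in all 3 cultures, against 11.7% of all genes, and 0 were lower in all 3, against 9.07%. None differed by 0.5 in 1 direction in all 3 cultures, against 0.055% of all genes that were higher and 0.0122% that were lower. None was lower by 1 in all 3, against 0.00611%. The 6 were EPYC, BGLAP, UCMA, CILP, GDF5 and IBSP. The median difference over the 30 genes was 0.04, against -0.00 over all genes. It was 0.160 under 75th percentile scaling and 0.211 on the values of the authors' table. The median within a culture lay between 0.00 and 0.06.

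EPYC was the only gene of the 30 at an unadjusted p under 0.05 for genotype, against 1.92% of all genes that were higher and 1.3% that were lower at that level. It was higher in PKHD1-/- organoids by 0.52 under flow, by 0.22 with forskolin and by 0.21 in static culture. The mean was 0.32 ± 0.09 (SE, n = 3 pairs, unadjusted p = 0.0268, adjusted p = 1.00 by limma). BGLAP was higher by 0.05 under flow, 0.39 with forskolin and 0.35 in static culture, a mean of 0.26 ± 0.09 (SE, n = 3 pairs, adjusted p = 1.00 by limma). UCMA was higher by 0.91 under flow but by 0.02 with forskolin and 0.04 in static culture, so its mean of 0.32 ± 0.23 (SE, n = 3 pairs) rested on the flow arrays. CILP differed by 0.01 to 0.13, GDF5 by 0.00 to 0.07 and IBSP by 0.00 to 0.26 over the 3 cultures.

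The larger genotype differences lay within single cultures, where 1 array stood against 1 and no test was possible. In static culture COL2A1 was 1.08 and CYTL1 1.09 higher in PKHD1-/- than in PKHD1+/- organoids. Under flow CNMD was 0.77, CYTL1 0.65 and MATN4 0.57 higher in PKHD1-/- organoids, while COL11A1 differed by -0.58 and COL9A3 by -0.51. With forskolin HAPLN1 differed by -1.21. Over the 3 cultures, the mean genotype differences of SOX9, SOX5, SOX6, ACAN, RUNX2, SP7, ALPL and COL2A1 lay between -0.24 and 0.22, each with an adjusted p of 1.00 by limma.

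**Figure D5:**
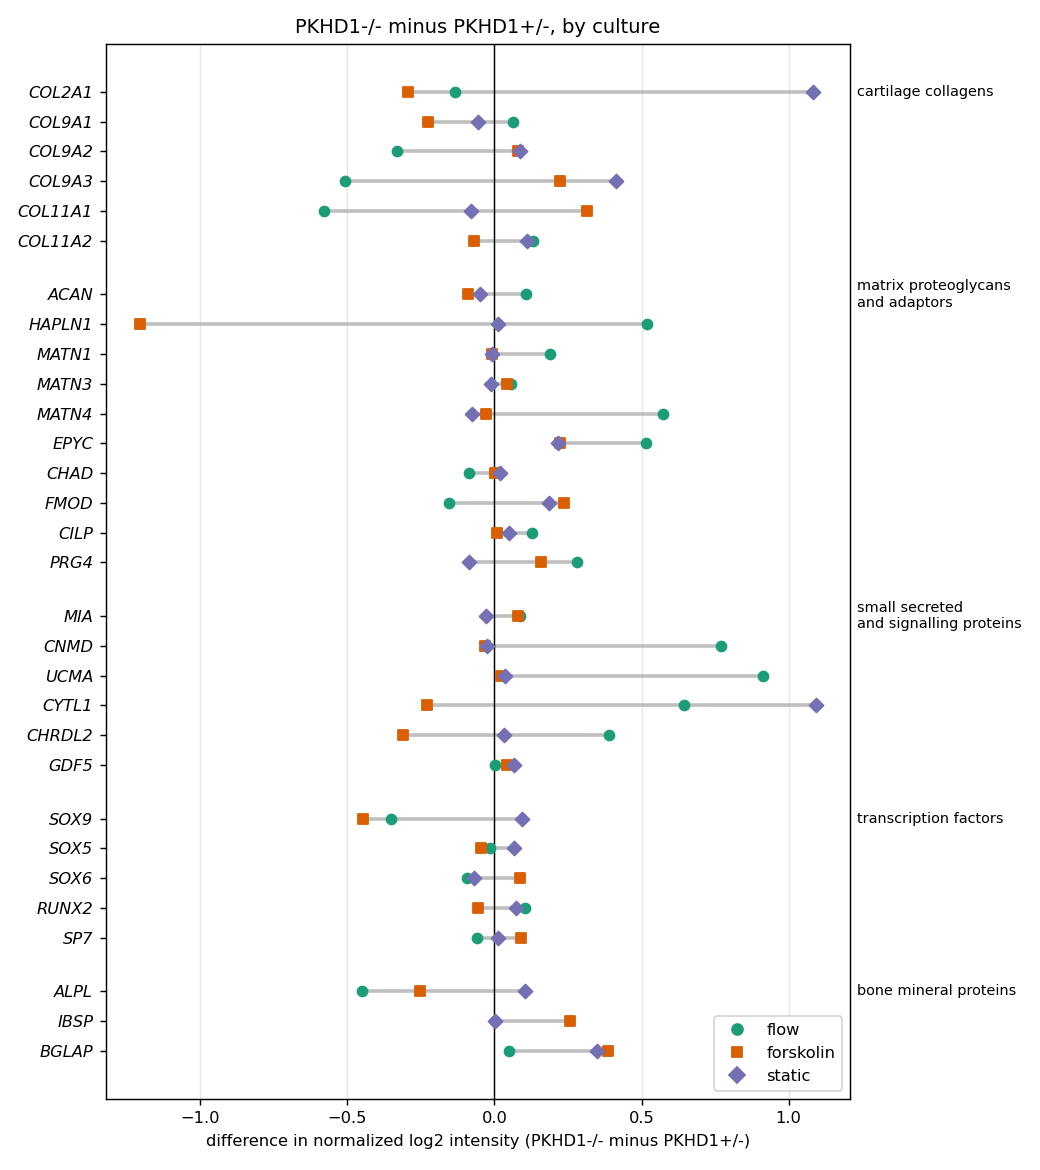
Difference in normalized log2 intensity between PKHD1-/- and PKHD1+/- organoids for the 30 genes tested, grouped by role, with 1 point per culture (green circles flow, orange squares forskolin, purple diamonds static) joined by a grey line. EPYC lay above 0 in all 3 cultures, while COL2A1 and HAPLN1 were spread over more than 1 log2 unit.

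Lists of related skeletal genes, which hold none of the 33, had flow medians near that of all genes. These were 0.05 over 28 tested genes of cartilage matrix and its processing, 0.04 over 27 genes of growth plate and joint signalling, 0.00 over 20 osteoblast and mineral genes, 0.03 over 9 osteoclast genes, -0.03 over 16 skeletal progenitor and somite genes and 0.06 over 8 tendon and ligament genes. None of them passed the adjusted threshold with flow by limma. Of the 28 matrix genes, 11 were higher in both pairs with flow and 5 were lower. Of the 27 growth plate genes, 12 were higher and 3 lower in both. Among all genes tested, 21.1% were higher and 24.2% lower in both pairs. The osteoblast, osteoclast, progenitor and tendon lists had 6, 4, 3 and 3 genes higher and 5, 2, 6 and 1 lower in both. At an unadjusted p under 0.05, 4 of the 28 matrix genes were higher and 2 were lower with flow, against 3.25% and 2.68% of all genes. Of the 27 growth plate genes, 3 were higher and 1 was lower, and in the other lists at most 2 were higher and at most 1 was lower.

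The largest flow difference in these lists was that of TNMD. TNMD, which encodes tenomodulin, a tendon protein and the closest relative of chondromodulin, had levels of 9.73 in PKHD1-/- and 9.31 in PKHD1+/- organoids under flow, 7.10 and 7.05 in PKHD1-/- and PKHD1+/- organoids with forskolin, and 8.0 and 6.86 in PKHD1-/- and PKHD1+/- organoids in static culture. Both flow arrays were above the other 4, with a flow difference of 2.09 ± 0.30 (SE, n = 2 pairs, adjusted p = 0.532 by limma). The small proteoglycans asporin and osteoglycin, encoded by ASPN and OGN, had flow differences of 1.33 ± 0.18 and 1.18 ± 0.15 (SE, n = 2 pairs, adjusted p = 0.511 and 0.498 by limma). MATN2, a matrilin found widely outside cartilage, had a flow difference of -1.10 ± 0.21 (SE, n = 2 pairs, adjusted p = 0.595 by limma). TGFB3 at 0.64 and GREM1 at 0.59 had the largest flow differences of the growth plate list, CTSK at 0.77 that of the osteoclast list and PRRX1 at 0.71 that of the progenitor list. COL1A1, the main collagen of bone, differed by -3.47 in the PKHD1-/- pair and 2.04 in the PKHD1+/- pair, so its mean of -0.72 ± 1.47 (SE) is smaller than its spread.

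With forskolin, 1 of the 108 tested genes of these 6 lists passed the adjusted threshold, or 0.926%, against 1.03% of all genes tested. It was NPPC, which encodes C-type natriuretic peptide, a growth plate signal that promotes bone lengthening. Its levels were 7.81 in PKHD1-/- and 7.75 in PKHD1+/- organoids with forskolin, 5.85 and 5.83 in PKHD1-/- and PKHD1+/- organoids under flow, and 5.80 in both genotypes in static culture. It rose by 1.98 ± 0.06 (SE, n = 2 pairs, adjusted p = 0.0277 by limma), a call that was lost in each of the 6 fits without 1 array. ASPN had a forskolin difference of 1.64, LUM of -1.80, SPP1 of -1.69, ALX1 of -1.39 and EGR1 of -2.08, none of which passed (adjusted p between 0.053 and 0.096 by limma).

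Genes of other cell types differed beside the cartilage genes. Summed over each list in the authors' table, the cartilage and bone genes gave 1929 and 1857 units in PKHD1-/- and PKHD1+/- organoids under flow, 1111 and 1131 units with forskolin, and 972 and 689 units in static culture. PRG4 alone gave 311 and 254 units with forskolin in PKHD1-/- and PKHD1+/- organoids, against 7.25 and 8.86 units in static culture. Skeletal muscle genes gave 23088 and 11153 units in PKHD1-/- and PKHD1+/- organoids under flow, 103211 and 82745 units with forskolin, and 4643 and 1148 units in static culture. Muscle genes were thus highest with forskolin and the cartilage genes with flow. Of 23 muscle genes tested, 21 were higher in both pairs with flow, against 21.1% of all genes tested, and 21 with forskolin, against 37%. Their medians were 1.82 with flow and 3.69 with forskolin. With flow none of the 23 passed the adjusted threshold, and with forskolin 9 rose, among them MYOG, ACTA1 and CKM, against 0.703% of all genes tested that were higher. These calls too were lost in each of the 6 fits without 1 array.

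Neuronal genes were higher in both pairs with flow in 10 of 13, against 21.1% of all genes tested, with a median of 0.33. They summed to 2124 and 1906 units in PKHD1-/- and PKHD1+/- organoids under flow, against 1147 and 850 units in static culture. Stromal genes had a flow median of -0.23 and summed to 9113 and 11152 units in PKHD1-/- and PKHD1+/- organoids under flow, against 16253 and 15756 units in static culture. Of 8 endothelial genes tested, 5 were lower in both pairs with flow, against 24.2% of all genes tested, with a median of -0.35. Of the melanocyte and glial genes, which matter for MIA because melanoma cells also secrete it, 5 of 7 on the array were tested, with a flow median of 0.09, and MLANA was not above background on any array. The melanocyte and glial list summed to 232 and 238 units in PKHD1-/- and PKHD1+/- organoids under flow, against 194 and 246 units in static culture.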

How the data were processed

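Total RNA was amplified, coupled to Cy dye and hybridized to 6 arrays, per the labels' protocols. Per the file headers, the deposited scanner files give the median intensity of each spot, linear and without background subtraction. The authors' value table rescales this intensity linearly on each array, which was checked against the scanner values, and sets the level of blank spots to 0. Spot medians were corrected by normexp (offset 50), converted to log2 and quantile normalized with limma 3.58.1 in R 4.3.3. Probes of a gene were averaged, and 205 probes with a flagged spot were left out.

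Genes were tested with limma's moderated test, 2-sided, with Benjamini-Hochberg adjustment, in the model culture plus genotype. Flow and forskolin were paired by genotype, and genotype by culture. With 1 array in each group, the error is the residual around the 2 factors (2 residual degrees of freedom, prior 1.54), and it may be technical. The fitting steps were also run on simulated arrays with independent noise. Those had no scan session or clone effect, so the check does not cover such effects.

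The genes and lists were chosen with earlier results of these data known. Full values are given for genes past the threshold or, where none pass, for up to 10 genes with 1 sign in every pair, ordered by their smallest paired change. They are also given for SOX9, SOX5, SOX6, COL2A1, ACAN, RUNX2, SP7, IBSP, BGLAP and ALPL. The genes with the largest change are named from each related list. Alternatives covered background correction, scaling, the value table, filters, probes, the variance prior, pairing and each array left out.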

Additional observations from a re-analysis of the deposited data

Results flagged for a closer look

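Some genes had differences of opposite sign in 2 cultures or genotypes, each at least 0.2 on the log2 scale, a limit chosen after the values were seen. Each is a comparison of single arrays, and none of these differences was tested. For COL9A3, the PKHD1-/- minus PKHD1+/- difference was -0.51 under flow, 0.22 with forskolin and 0.41 in static culture, so flow less static was -0.92 and flow less forskolin was -0.73. The COL11A1 genotype difference was -0.58 under flow and 0.32 with forskolin, which are -0.89 apart. For HAPLN1 it was 0.52 under flow and -1.21 with forskolin, which are 1.73 apart. The CYTL1 genotype difference was 0.65 under flow, -0.23 with forskolin and 1.09 in static culture, so flow less forskolin was 0.87 and static less forskolin was 1.32. For CHRDL2 it was 0.39 under flow and -0.31 with forskolin, which are 0.70 apart. The COL2A1 genotype difference was 1.08 in static culture and -0.29 with forskolin, which are 1.38 apart. ALPL had a flow difference of -0.31 in PKHD1-/- and 0.24 in PKHD1+/- organoids, which are -0.55 apart.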

How the results depend on the processing

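The values of single genes were recomputed 674 times over 18 other settings. Of these, 631 kept their direction and their side of the threshold, while 34 changed sign. Many could not differ, so the count overstates how far the results were tried. Leaving out either array of a culture gives the same genotype difference, and leaving out a flow array does not change a forskolin difference. Among these results only PRG4 with forskolin had passed the threshold at first. Scaling each array to its 75th percentile moved the median of all genes by 0.31 with forskolin, -0.11 with flow and 0.09 for genotype. Under it 11 cartilage and bone genes passed with forskolin, with a median of 0.330, and the genotype median was 0.160. ACAN (0.444), RUNX2 (0.298), SP7 (0.361) and ALPL (0.023) turned positive with forskolin, SOX5 (-0.045) turned negative with flow, and SOX6 (0.092) and ACAN (0.142) turned positive for genotype. With the authors' values, 2 genes passed with forskolin. The medians there were 0.828 with flow, -0.102 with forskolin and 0.211 for genotype, with ACAN at 0.631 for forskolin and SOX5 at -0.259 for genotype. ACAN probe 1 had no value on either forskolin array, so those levels rest on probe 2 and the static levels on both probes. Probe 2 had 6.69 and 7.78 units in PKHD1-/- and PKHD1+/- organoids with forskolin, against 6.98 and 7.20 in static culture. SOX5 had no value on the PKHD1+/- static array, so its genotype difference rests on flow and forskolin. A trended, robust prior gave 2 passing genes with forskolin. Genes above background on all 6 arrays had a forskolin median of -0.042. The forskolin arrays alone gave a genotype median of 0.00482. The flow and static arrays alone gave ACAN 0.029 and SP7 -0.023 for genotype, and the brightest probe gave ACAN 0.048. With a paired change of at least 1, 4 genes counted with flow and 1 with forskolin. Among all genes tested, 169 passed with forskolin, against 41 with no filter, 628 in the authors' table, 1096 without pairing and 1177 with the trended prior.

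Without 1 array in turn, 0 genes of the 30 passed with forskolin in each of the 6 fits. The medians then lay between 0.221 and 0.399 with flow and between -0.0367 and 0.0019 with forskolin. Genotype differences ranged from -0.214 to 0.475 for COL2A1, -0.069 to 0.029 for ACAN, -0.031 to 0.026 for SOX5, -0.0813 to 0.00927 for SOX6 and -0.023 to 0.051 for SP7. Flow differences ranged from -0.265 to 0.190 for ALPL, -0.111 to 0.019 for IBSP and -0.092 to 0.017 for SP7. Forskolin differences ranged from -1.29 to 0.011 for COL2A1, -0.079 to 0.090 for SOX6, -0.043 to 0.212 for IBSP and -0.071 to 0.042 for SP7. Apart from empty ACAN and SOX5 values and fewer arrays in the fits without 1, the cause of these changes was not tested. Keeping flagged spots, which was chosen after seeing the data, brought COMP into the test and changed no call of the 30 genes.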
